A study of Mus musculus with 8 samples.

Results

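The 6 genes described here encode proteins through which a cell signals to, holds or is inspected by leukocytes: Ptgs2, Selp, Cxcl12, Csf1, Vcam1 and H2-K1. They were taken by name from the 5457 genes of the deposited table, and all 6 are among the 5452 genes whose group means could be taken apart into single libraries. RNA was sequenced from tdTomato-positive cells that had been sorted from the hind limbs of adult C57BL/6 mice, as skeletal muscle cells, and cultured on Matrigel. Mice of the genotype Pax7-CreERT2/+;R26-tdTO+ gave the Pax7 groups and mice of the genotype Tw2-CreERT2/+;R26-tdTO+ the Tw2 (Twist2) groups. All had received 3 tamoxifen treatments, one every other day, 10 days before harvest, so the reporter marks cells in which Cre had been active at that time and their progeny. Pax7 is the transcription factor of satellite cells, the stem cells of muscle fibres, and Twist2 is a basic helix-loop-helix factor. Libraries titled GM (growth medium, Ham's F10 with 20% fetal bovine serum) form Tw2_GM and Pax7_GM, and those titled 48 form Tw2_48 and Pax7_48, with 2 libraries in each of the 4 groups. The Tw2 titles give 48 in hours, and the Pax7 titles give no unit. A differentiation medium with 2% horse serum and bFGF is described, but no label states which medium each 48 culture was in. The table holds genes with a deposited difference of at least 2-fold from Tw2_GM in at least 1 other group, so the share of called genes is high in every comparison. Every gene analysed also had at least 10 CPM in at least 4 libraries. Counts and medians of the gene lists below therefore cover only genes that passed both limits. A gene that reached 10 CPM in 1 culture only could enter only if it was higher in that culture.

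Prostaglandin synthesis starts when a phospholipase frees arachidonic acid from membranes and a cyclooxygenase converts it to prostaglandin H2, from which specific synthases make the single prostaglandins. Leukocytes leave blood by rolling on selectins, answering chemokines and holding firmly to adhesion molecules such as VCAM-1, while colony-stimulating factor 1 keeps macrophages alive. Class I molecules of the major histocompatibility complex show peptides from inside the cell to CD8 T cells. In muscle, VCAM-1 is also a surface protein of satellite cells and takes part in myoblast fusion.

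The promoters are shown because several of these genes are known targets of the inflammatory factor NF-kB, and a short match to its site is common. Each line gives the 160 bases upstream of the transcript start (RefSeq, GRCm38.p6), 5′ to 3′ on the strand of the gene, for 4 of the 5 members with an entry. Capitals mark a loose form of the kappaB site that NF-kB binds, GGG and CC with 5 bases of any kind between them, searched on both strands, and overlapping matches are joined into 1 run of capitals.
Ptgs2, chr1:150099871-150100030, plus strand: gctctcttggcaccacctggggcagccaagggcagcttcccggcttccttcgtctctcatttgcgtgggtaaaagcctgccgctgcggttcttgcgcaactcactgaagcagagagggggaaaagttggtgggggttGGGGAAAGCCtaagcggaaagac
Selp, chr1:164115104-164115263, plus strand: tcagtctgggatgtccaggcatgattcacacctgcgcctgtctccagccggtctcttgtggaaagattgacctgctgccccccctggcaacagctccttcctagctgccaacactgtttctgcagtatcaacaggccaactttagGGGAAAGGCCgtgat
Csf1, chr3:107760470-107760629, minus strand: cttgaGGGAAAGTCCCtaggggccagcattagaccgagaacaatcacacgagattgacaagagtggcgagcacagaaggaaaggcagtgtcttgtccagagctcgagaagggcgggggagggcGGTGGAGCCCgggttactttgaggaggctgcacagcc
H2-K1, chr17:34000348-34000507, minus strand: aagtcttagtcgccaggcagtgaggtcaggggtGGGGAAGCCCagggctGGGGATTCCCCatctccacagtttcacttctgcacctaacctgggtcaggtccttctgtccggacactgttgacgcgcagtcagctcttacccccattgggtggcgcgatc
All 5 members with an entry (the 4 above and Cxcl12) held at least 1 such match, and so did 50.8% of all 32851 promoters of 300 bases in the table and 69.1% of those of the listed genes. Downstream of the start, outside the bases shown, Ptgs2 held CACGTG, an E-box that 7.15% of all promoters carry, from offset 16. H2-K1 held TATAAA, present in 13.6%, from offset 35 of the entry shown, also downstream of its start. A second H2-K1 entry, with another start, held TATAAA from offset 21. Neither an interferon response motif, GAAA repeated with any 2 bases between (3.44% of promoters), nor TGACGTCA (1.79%) was in the 300 bases of a member. Only these exact forms were searched, so a member may still hold another form of an interferon response site. These are letters in a window and were not tested for binding.

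Library sizes implied by the CPM values ran from 5.18 to 13.7 M reads. They are not whole numbers, so they may be sizes that the authors scaled, and a CPM here is relative to them. At these sizes 3 reads, the upper limit that a count of 0 allows, came to between 0.218 and 0.579 CPM (reads scaled to library size). This limit covers counting error only. The Pax7_GM libraries were the shallowest and the least alike, with an SD of the log2 ratio between its libraries of 0.498 over all genes, against 0.169 to 0.196 in the other groups. Within a group, libraries are named by depth (deeper, shallower), as the deposited means carry no replicate numbers. Whether they stem from different mice or cultures is not stated in the labels, so p-values measure only the spread between these libraries. Differences are given on the log2(CPM + 1) scale with their standard error (SE) from limma, and a gene was called at a Benjamini-Hochberg adjusted p under 0.05 over all 5452 genes. Pax7 itself was at 113 and 109 CPM for Tw2_GM and at 117 and 112 CPM for Pax7_GM, a difference of −0.05 ± 0.12 (adjusted p = 0.738). At 48 it was 0.35 ± 0.12 higher in Tw2_48 than in Pax7_48 (adjusted p = 0.0303). The Twist2 gene was not analysed here. Xist, the RNA that silences an X chromosome in female cells, was at 1188 and 659 CPM for Tw2_GM and at 45.9 and 175 CPM for Pax7_GM. It was at 351 and 272 CPM for Tw2_48 and at 70.9 and 66.6 CPM for Pax7_48, so it was higher in Tw2 in both cultures. No label states whether the mice were male or female, and the part of this difference in the Tw2 minus Pax7 values was not tested. Across 5431 genes with a known transcript GC content, the Tw2 minus Pax7 difference went down with GC (Spearman rho −0.69 in GM and −0.61 at 48, across genes that share libraries). The GC content of each member is therefore given beside its lineage difference.

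Of the 6 genes, 5 fell between GM and 48 in both lineages and 1, H2-K1, rose in both. Among all genes 40.5% were called lower and 38.8% higher in Pax7 cells, and 48.9% lower and 35.3% higher in Tw2 cells. Ptgs2 and Selp were higher in Tw2 than in Pax7 cells in both cultures, at ratios of mean CPM from 10.7 to 13.7. Csf1, Vcam1 and Cxcl12 overlapped between the GM groups with no difference called, though other scalings gave calls there, and were lower in Tw2 than in Pax7 at 48. H2-K1 was lower in Tw2 in both cultures. In these cultures, a change in the number of cells that express a gene and a change in RNA per cell cannot be told apart.

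**Figure D1:**
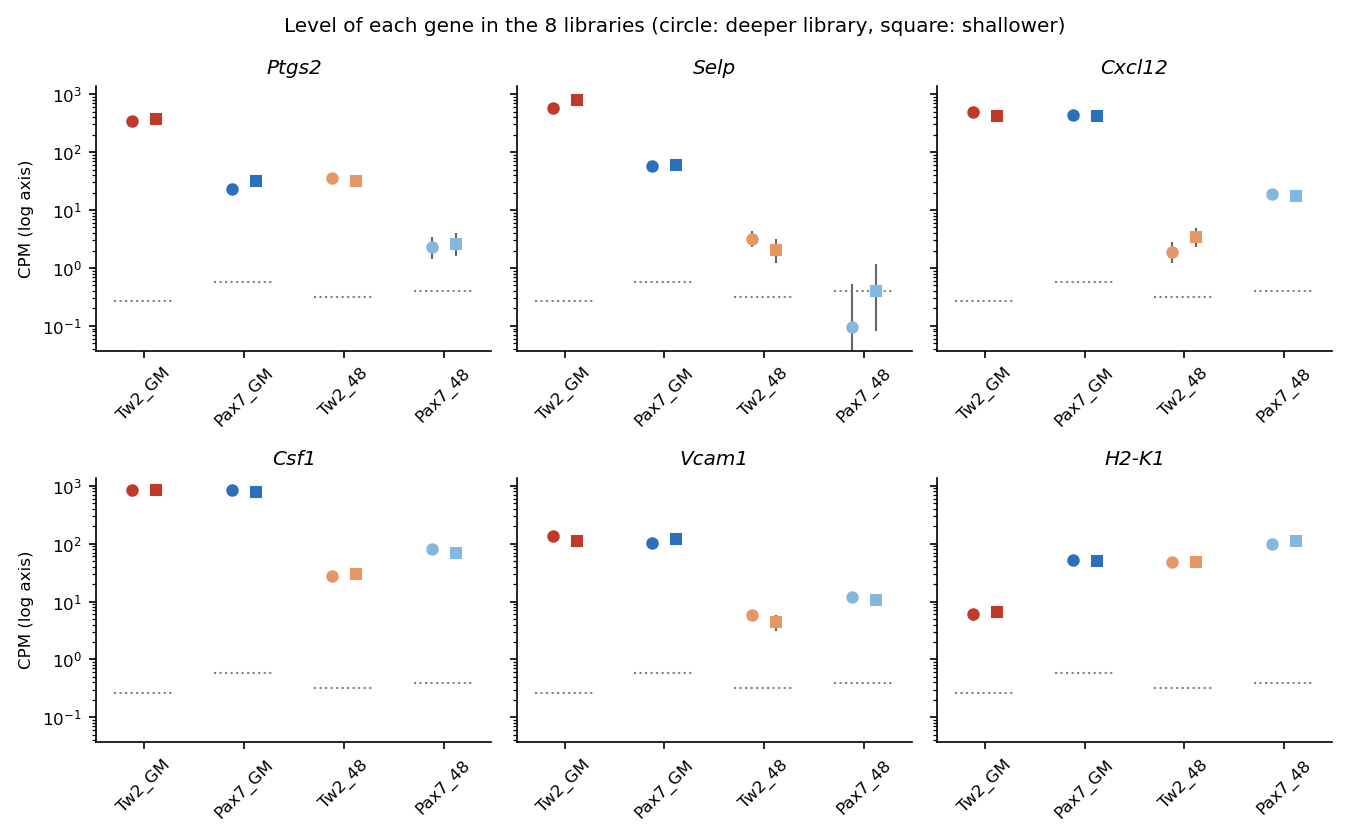
CPM of each gene in the 8 libraries on a log axis, by group (Tw2_GM, Pax7_GM, Tw2_48, Pax7_48; circles the deeper library, squares the shallower). Vertical bars are exact Poisson 95% intervals of the reads, shown where they exceed the symbol, and dotted lines mark 3 reads in the shallower library. H2-K1 is the only gene of the 6 with its lowest values in Tw2_GM, and Selp in Pax7_48 (0.0940 and 0.393 CPM) lies at the level of single reads, with 1 bar that runs on below the axis.

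Ptgs2 encodes cyclooxygenase-2, the inducible enzyme that commits arachidonic acid to prostaglandins. The gene lies on chromosome 1 (150100031 to 150108227, plus strand, GRCm38), and its longest coding transcript has a GC content of 40.0%, lower than in most listed genes. Its level was 350 and 369 CPM in the Tw2_GM libraries and 23.03 and 32.2 CPM for Pax7_GM. At 48 it was 35.2 and 31.8 CPM for Tw2_48 and 2.25 and 2.62 CPM for Pax7_48, the last from 24 and 20 reads. Within each culture the Tw2 libraries lay above the Pax7 libraries without overlap, while Tw2_48 overlapped Pax7_GM. Mean CPM was 13.0-fold higher in Tw2_GM than in Pax7_GM (log2 fold change 3.67 ± 0.17 SE, adjusted p = 4.93e-06). At 48 the ratio of mean CPM was 13.7 (3.33 ± 0.17, adjusted p = 2.91e-05). Ptgs2 ranked number 5 from the top of 5452 genes in GM and number 3 at 48. With a smooth trend in transcript GC content and length removed from each library, the GM value was 2.31 and still called.

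Between the cultures, Ptgs2 fell 11.3-fold in mean CPM in Pax7 cells (−3.04 ± 0.17, adjusted p = 1.11e-06) and 10.7-fold in Tw2 cells (−3.39 ± 0.17, adjusted p = 3.75e-07). The change in Tw2 cells minus that in Pax7 cells was −0.34 (95% interval −0.91 to 0.22, adjusted p = 0.318). This difference did not pass the test with all libraries. It was −0.58 (adjusted p = 0.0146) without the shallower Pax7_GM library and −1.12 (adjusted p = 0.00629) with a pseudocount of 5. It stood at 0.01 with a pseudocount of 0.1 and at 0.17 with the GC trend removed, neither of them called.

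Selp encodes P-selectin, a lectin known from endothelium and platelets that lets leukocytes roll on the vessel wall. It lies on chromosome 1 (164115264 to 164150026, plus strand). Exons of the antisense genes Gm16548 and Gm16587 overlap 14.1% of its exonic bases, and since no source used here says whether the counting used strand, reads of the strands cannot be told apart there. Selp stood at 584 and 793 CPM for Tw2_GM and at 56.9 and 60.2 CPM for Pax7_GM. It came to 3.20 and 2.02 CPM for Tw2_48 (44 and 19 reads) and to 0.0940 and 0.393 CPM for Pax7_48 (1 and 3 reads). The groups did not overlap, and the Pax7_48 values were at or under the level of 3 reads. In GM the Tw2 mean was 11.8-fold higher (3.52 ± 0.22, adjusted p = 1.24e-05), number 9 from the top of all genes, at a GC content of 51.0%.

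At 48 the summed reads of Selp were 63 in Tw2_48 and 4 in Pax7_48, a ratio of 12.4 once scaled to library size, with a 95% counting interval of 4.63 to 47.1. The fitted difference of 1.53 ± 0.22 (adjusted p = 0.00112) is smaller because a pseudocount of 1 exceeds the Pax7_48 values. It was 3.10 with a pseudocount of 0.1 and 0.53 with 5, called in each. The fall of Selp from Tw2_GM to Tw2_48 was 264-fold in mean CPM (−7.58 ± 0.22, adjusted p = 2.39e-08) and ranked number 1 from the bottom of 5452 genes. Every gene analysed had at least 10 CPM in at least 4 libraries, and Selp reached 10 CPM only in the GM libraries. A lower level at 48 was thus a condition of its being analysed, so its rank and the direction of its falls are descriptions. In Pax7 cells the reads went from 732 in Pax7_GM to 4 in Pax7_48, 266-fold lower once scaled to library size, with a 95% counting interval of 104 to 980 (−5.59 ± 0.22, adjusted p = 2.45e-07). With a pseudocount of 5 the Pax7 fall was −3.60. The difference between these changes was −1.99 ± 0.31 (adjusted p = 0.00419) with a pseudocount of 1 and −0.44 (adjusted p = 0.607) with 0.1.

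No marker of endothelium (0 of 11 listed) or of platelets and megakaryocytes (0 of 6 listed) was among the genes analysed here, so the levels of those cell types beside Selp were not tested. Of the 11 macrophage and leukocyte markers only Itgam, an integrin chain of myeloid cells, was analysed here. Itgam had 0 reads in both Tw2_GM libraries, was at 0.542 and 0.579 CPM for Pax7_GM, at 22.8 and 18.1 CPM for Tw2_48 and at 15.9 and 11.9 CPM for Pax7_48. Its high groups were thus the 48 cultures, in which Selp was lowest. Every gene analysed here had at least 10 CPM in at least 4 libraries, and Itgam reached 10 CPM only in the 48 libraries. A higher level at 48 was therefore a condition of its being analysed. Summed pericyte markers (4 of 6: Rgs5, Cspg4, Abcc9 and Notch3) lay between 122 and 179 CPM in all 8 libraries, but the single markers moved in opposite directions. Rgs5 was at 56.3 and 62.1 CPM for Tw2_GM, 11.4 and 18.9 CPM for Pax7_GM, 0.510 and 0.213 CPM for Tw2_48 and had 0 reads in both Pax7_48 libraries, the same order of groups as Selp. Cspg4, too, was highest in Tw2_GM (60.3 and 84.6 CPM) and lowest in Pax7_48 (10.99 and 13.4 CPM). Abcc9 went the other way, from 1.31 and 1.24 CPM for Tw2_GM to 92.3 and 80.2 CPM for Tw2_48, and Notch3 was highest in Pax7_GM (79.0 and 79.7 CPM). Like Selp, Rgs5 reached 10 CPM only in the GM libraries, and Abcc9 did so only in the 48 libraries. The direction of these genes between the cultures was therefore a condition of their being analysed. Of the fibro-adipogenic progenitor markers, 3 of 7 (Col1a1, Col3a1 and Prrx1) summed to 996 and 945 CPM for Tw2_GM, 504 and 530 CPM for Pax7_GM, 197 and 219 CPM for Tw2_48 and 161 and 157 CPM for Pax7_48. Nearly all of this sum was Col3a1, a collagen chain, at 987 and 940 CPM for Tw2_GM and 462 and 477 CPM for Pax7_GM, which like Selp was highest in Tw2_GM. Prrx1 was lower in Tw2 in GM (4.68 and 2.39 CPM, with 29.5 and 39.7 CPM for Pax7_GM, −3.01 ± 0.25, adjusted p = 5.1e-05), and the Col1a1 libraries, with 3.53 and 2.39 CPM in Tw2 and 12.5 and 13.1 CPM in Pax7, missed the threshold (adjusted p = 0.0506). The part of these markers in the results on the members was not tested.

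Vcam1 encodes vascular cell adhesion molecule 1, the ligand of the integrin VLA-4 on leukocytes and myoblasts. It lies on chromosome 3 (116109949 to 116129688, minus strand) and has a GC content of 40.1%. Its level was 134 and 110 CPM for Tw2_GM and 101 and 121 CPM for Pax7_GM. In the 48 cultures it was 5.83 and 4.36 CPM for Tw2_48 and 12.1 and 10.6 CPM for Pax7_48. The GM groups overlapped and the 48 groups did not. The GM difference of 0.13 ± 0.18 (95% interval −0.29 to 0.54, adjusted p = 0.533) did not pass the test. Its direction turned with other scalings: −0.74 (adjusted p = 0.0029) with median-of-ratios size factors over the listed genes, −0.42 (adjusted p = 0.04998) with quantile normalization, and −1.16 (adjusted p = 0.000152) with the GC trend removed. At 48 the Tw2 mean was 2.23-fold lower (−1.03 ± 0.18, adjusted p = 0.0022), −1.62 with size factors and −1.81 with the GC trend removed.

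The fall of Vcam1 from GM to 48 was 9.77-fold in Pax7 cells (−3.18 ± 0.18, adjusted p = 1.08e-06) and 23.9-fold in Tw2 cells (−4.33 ± 0.18, adjusted p = 1.13e-07). The changes differed by −1.16 ± 0.25 (adjusted p = 0.0175). This value was −0.65 with the GC trend removed and lost its call on leaving out any 1 of 4 libraries. It was −1.02 (adjusted p = 0.0844) without the deeper Tw2_GM library, −0.98 (0.0824) without the shallower Tw2_48 library, −1.07 (0.0813) without the deeper Pax7_48 library and −1.25 (0.0545) without the shallower Pax7_48 library. Vcam1 is also 1 of 3 satellite cell markers analysed here of 6. Pax7, another of them, went from 113 and 109 CPM for Tw2_GM to 13.0 and 12.6 CPM for Tw2_48, and from 117 and 112 CPM for Pax7_GM to 9.58 and 9.95 CPM for Pax7_48. Both genes were thus lower in the 48 cultures of each lineage. The summed level of the 3 markers, with Itga7, was 800 and 730 CPM for Tw2_GM and 1039 and 948 CPM for Pax7_GM. It was 1117 and 1060 CPM for Tw2_48 and 1951 and 2217 CPM for Pax7_48. Nearly all of the sum at 48 was Itga7, at 1098 and 1043 CPM for Tw2_48 and 1930 and 2197 CPM for Pax7_48. Itga7 rose between the cultures (1.42 in Pax7 and 1.01 in Tw2 cells), so the sum hides the fall of Pax7 and Vcam1.

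Cxcl12 encodes the chemokine SDF-1, which draws cells that carry the receptor Cxcr4. The gene is on chromosome 6 (117168535 to 117181367, plus strand). It was expressed at 486 and 427 CPM for Tw2_GM and at 442 and 425 CPM for Pax7_GM. At 48 it was at 1.89 and 3.41 CPM for Tw2_48, from 26 and 32 reads, and at 18.6 and 17.2 CPM for Pax7_48. The GM libraries overlapped, whereas both Tw2_48 libraries lay below both Pax7_48 libraries. In GM the difference was 0.07 ± 0.20 (95% interval −0.39 to 0.53, adjusted p = 0.759). That value was −0.80 (adjusted p = 0.00555) with size factors. At 48 the Tw2 mean was 6.75-fold lower (−2.40 ± 0.20, adjusted p = 0.000134), number 25 from the bottom of all genes, at a GC content of 50.7%, and −1.59 with a pseudocount of 5. Cxcl12 fell 24.3-fold in Pax7 cells (−4.53 ± 0.20, adjusted p = 3.36e-07) and 172-fold in Tw2 cells (−7.00 ± 0.20, adjusted p = 2.24e-08), where only Selp fell further by the fit. The changes differed by −2.47 ± 0.28 (adjusted p = 0.001).

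Csf1 encodes colony-stimulating factor 1, the growth factor of monocytes and macrophages. It lies on chromosome 3 (107741048 to 107760469, minus strand), with a GC content of 54.4%. It was at 833 and 858 CPM for Tw2_GM and at 839 and 780 CPM for Pax7_GM, which overlapped. At 48 it was at 27.3 and 29.4 CPM for Tw2_48 and at 80.1 and 68.0 CPM for Pax7_48, without overlap. The GM difference was 0.06 ± 0.14 (95% interval −0.25 to 0.38, adjusted p = 0.684). It was called as lower with size factors (−0.81, adjusted p = 0.000899) and as higher with the GC trend removed (0.83, adjusted p = 0.000498). The 48 level was 2.61-fold lower in Tw2 (−1.35 ± 0.14, adjusted p = 0.000289), and −0.89 with the GC trend removed. Csf1 fell 10.9-fold in Pax7 cells (−3.44 ± 0.14, adjusted p = 2.45e-07) and 29.8-fold in Tw2 cells (−4.85 ± 0.14, adjusted p = 2.12e-08). The changes differed by −1.42 ± 0.19 (adjusted p = 0.00233).

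H2-K1 encodes the heavy chain of a classical class I molecule. It lies on chromosome 17 (33996017 to 34000347, minus strand) and has a GC content of 54.3%. Its longest coding transcript shares 8.79% of its stretches of 50 bases with other genes, among them H2-D1 (6.94%) and H2-Q1 (4.59%). Reads of such stretches may have been split between these genes, and the value of H2-K1 is uncertain to that extent. H2-K1 was at 6.00 and 6.55 CPM for Tw2_GM (73 and 74 reads) and at 51.6 and 50.2 CPM for Pax7_GM. It reached 48.1 and 49.0 CPM for Tw2_48 and 97.8 and 112 CPM for Pax7_48. The Tw2_48 values were thus close to those of Pax7_GM, a pair of groups that no fit compared. In GM the Tw2 mean was 8.11-fold lower (−2.84 ± 0.13, adjusted p = 4.5e-06), and −1.84 with the GC trend removed. At 48 it was 2.16-fold lower (−1.09 ± 0.13, adjusted p = 0.000539), −1.75 with size factors and −0.44 with the GC trend removed, both still called. H2-K1 rose 2.06-fold in Pax7 cells (1.03 ± 0.13, adjusted p = 0.000112) and 7.73-fold in Tw2 cells (2.77 ± 0.13, adjusted p = 2.18e-07), a difference of 1.74 ± 0.18 (adjusted p = 0.000699).

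**Figure D2:**
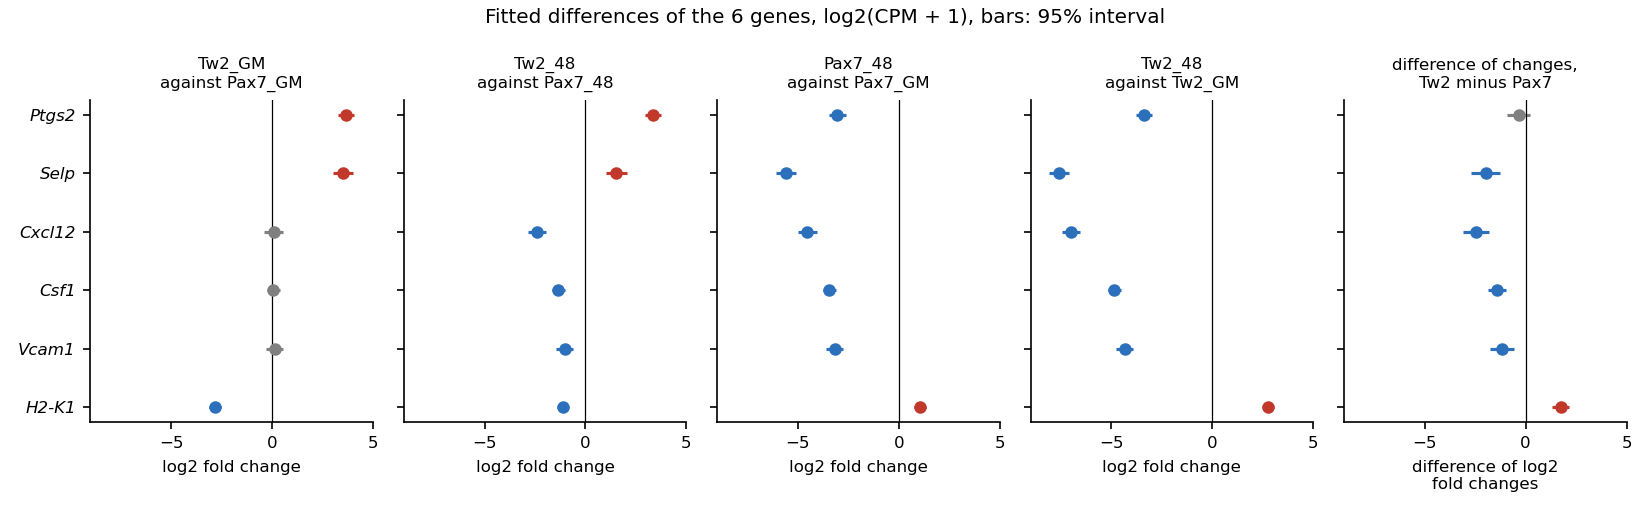
Fitted log2 fold changes of the 6 genes on the log2(CPM + 1) scale in the 4 comparisons, and the difference of changes, with 95% intervals (red called higher, blue called lower, grey not called). In both culture comparisons 5 genes lie to the left of 0 and H2-K1 to the right, and in the GM lineage comparison Cxcl12, Csf1 and Vcam1 lie at 0.

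Counted over the members, Tw2_GM against Pax7_GM gave 2 higher, 1 lower and 3 not called, and 3 members whose libraries did not overlap. Among all genes of that comparison 48.7% were called higher and 26% lower (74.7% in all), and 87.8% did not overlap. Tw2_48 against Pax7_48 gave 2 higher and 4 lower, with all 6 not overlapping, against 43.3% higher, 22.1% lower, 65.4% in all and 89.6% not overlapping. Pax7_48 against Pax7_GM gave 1 higher and 5 lower with no overlap in any of the 6. The share of all genes there was 38.8% higher, 40.5% lower, 79.2% in all and 85% not overlapping. Tw2_48 against Tw2_GM also gave 1 higher and 5 lower with no overlap, against 35.3% higher, 48.9% lower, 84.1% in all and 95% not overlapping. Most listed genes were called in each of these comparisons, so a call alone does not set a member apart. The difference of changes was called in 5 of the 6, 1 higher and 4 lower, where 9.72% of all genes were called higher, 9.01% lower and 18.7% in all. The median log2 fold change of the members was −3.31 in the Pax7 lineage and −4.59 in the Tw2 lineage, beside medians over all genes of 0.01 and −0.49.

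Per kilobase of the longest coding transcript, the order of the levels changed with the group. In Tw2_GM, Csf1 (202 CPM per kb) and Selp (200 CPM per kb) stood highest, then Cxcl12 (81.1) and Ptgs2 (80.7), then Vcam1 (35.0) and H2-K1 (3.88). Csf1 and Selp, and likewise Cxcl12 and Ptgs2, differed by less than the spread between libraries. In Pax7_GM the order was Csf1 (194 CPM per kb), Cxcl12 (77.1), Vcam1 (32.0), H2-K1 (31.4), Selp (17.0) and Ptgs2 (6.20). At 48 H2-K1 was the highest of the 6 in both lineages, at 30.0 CPM per kb in Tw2_48 and 64.8 CPM per kb in Pax7_48. Vcam1 and H2-K1 in Pax7_GM, too, differed by less than that spread. The lowest in Tw2_48 were Cxcl12 (0.471 ± 0.190 CPM per kb, SD, n = 2) and Selp (0.760 ± 0.243 CPM per kb), whose order is within the spread between libraries. Selp was lowest in Pax7_48 (0.071 CPM per kb).

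The members fell into separate shapes over the 8 libraries. Measured as the root mean square difference of log2(CPM + 1) after centring each gene, Csf1 and Vcam1 were closest at 0.28. Cxcl12 was 0.90 from Csf1 and 1.14 from Vcam1, and all other pairs were between 1.81 and 4.89. The gene most like Ptgs2 was Piezo2 (0.46), a mechanically gated ion channel, then Plagl1 (0.55), an imprinted zinc finger factor, and Pla2g4a (0.60), the cytosolic phospholipase A2. Selp had no close match, and Top2a (0.79) and Mki67 (0.82), genes of dividing cells, were nearest with Car8 (0.84). Top2a was at 771 and 649 CPM for Tw2_GM, 65.8 and 146 CPM for Pax7_GM, 6.63 and 5.43 CPM for Tw2_48 and 4.70 and 3.27 CPM for Pax7_48. Like Selp it was highest in Tw2_GM and next in Pax7_GM. The closest to Cxcl12 were Ccnd1 (0.30), which encodes cyclin D1, the helix-loop-helix inhibitor Id3 (0.42) and Fosl1 (0.45), a Fos family factor. Csf1 was closest to the ephrin receptor Epha2 (0.17), Tes (0.19) and Sema7a (0.21). Vcam1 was closest to Nsl1 (0.16), Jade2 (0.18) and the phosphatase Dusp5 (0.19). H2-K1 was closest to Maoa (0.14), which encodes monoamine oxidase A, Cyfip2 (0.20) and Fitm1 (0.26).

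Around Ptgs2, 16 of 43 listed genes of prostaglandin synthesis, transport and signalling were among the genes analysed here. In GM, 6 were called higher in Tw2, 4 lower and 6 not, with a median of 0.21 beside 0.34 over all genes. With size factors 4 were higher and 10 lower, and with the GC trend removed 10 higher and 2 lower, so the direction of the list depended on the scaling. Pla2g4a, whose product frees arachidonic acid, lies 138.7 kb from Ptgs2 and was at 158 and 170 CPM for Tw2_GM against 8.81 and 22.6 CPM for Pax7_GM (3.44 ± 0.35, adjusted p = 0.000109). At 48 it was at 11.4 and 10.0 CPM for Tw2_48 against 2.07 and 2.75 CPM for Pax7_48 (1.78 ± 0.35, adjusted p = 0.00334), and its lineage difference was higher in Tw2 under all 3 other scalings too. Ptgis, the prostacyclin synthase, was higher in Tw2 in both cultures (1.57 and 1.49), and Cbr1, a carbonyl reductase, was lower (−2.23 and −2.03). Ptgs1, the constitutive cyclooxygenase, did not share the Ptgs2 lineage difference. It stood at 184 and 210 CPM for Tw2_GM and 189 and 178 CPM for Pax7_GM (0.10 ± 0.15, adjusted p = 0.553), although it was called higher (0.75) with the GC trend removed and lower (−0.77) with size factors.

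Between the cultures, 7 of the 16 rose and 9 fell in each lineage, with medians of −0.94 in Pax7 and −1.06 in Tw2 cells. Among all genes 38.8% rose and 40.5% fell in Pax7 cells, and 35.3% rose and 48.9% fell in Tw2 cells. These shares also stand beside the culture counts of each list below. Among those that fell were Ptgs1 (−3.59 in Pax7, −4.00 in Tw2) and Ptger4, an E prostanoid receptor (−3.23 and −4.21). Ptgds, the prostaglandin D synthase, rose in both. It was at 0 reads in both Tw2_GM libraries and at 0 and 0.193 CPM for Pax7_GM, and reached 18.9 and 18.3 CPM for Tw2_48 and 33.1 and 44.0 CPM for Pax7_48. Pla2g16 was 1 of 2 genes of the list, with Ptgds, whose changes differed between lineages, at 0.98 ± 0.22 (adjusted p = 0.0192).

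**Figure D3:**
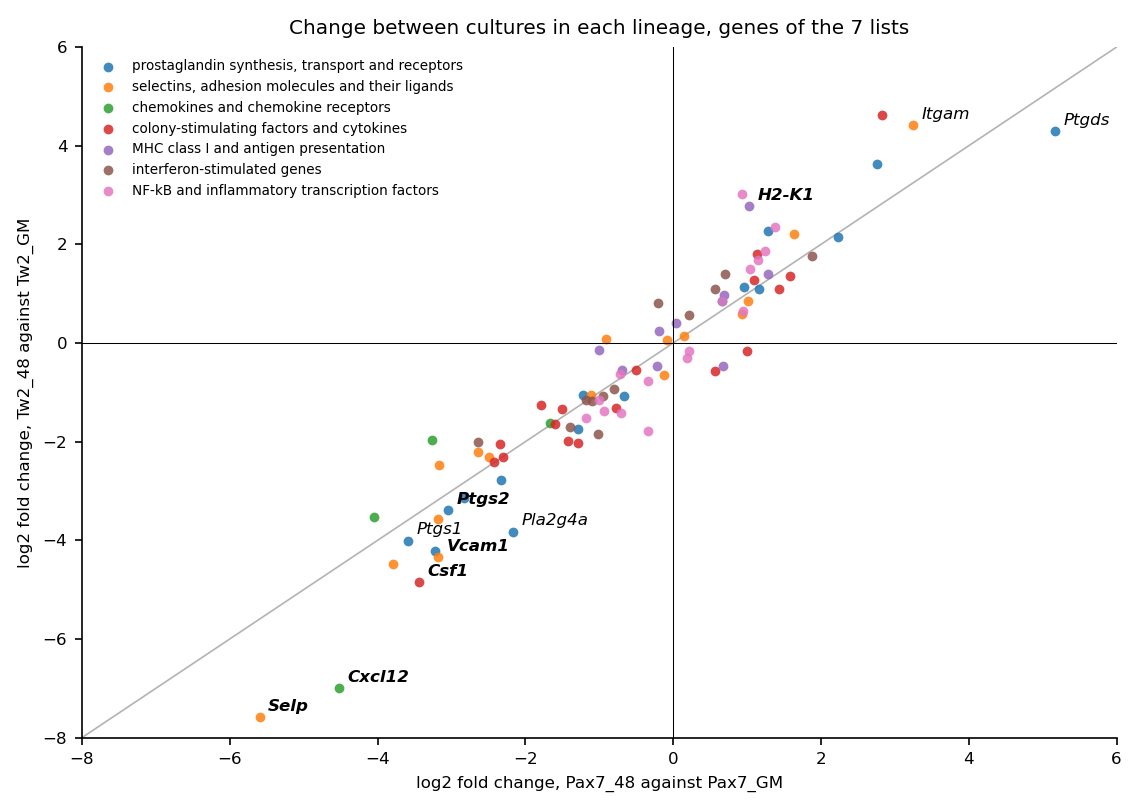
Log2 fold change from GM to 48 in Pax7 cells (horizontal axis) and in Tw2 cells (vertical axis) for each gene of the 7 lists analysed here, coloured by list, on the log2(CPM + 1) scale. The members are in bold and the grey line marks equal change. Selp and Cxcl12 lie lowest, and H2-K1 lies above the line at 1.03 and 2.77.

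Of the selectins, adhesion molecules and their ligands, 16 of 54 were analysed here. In GM 7 were higher in Tw2 and 4 lower (median 0.33, as over all genes), against 5 higher and 9 lower with size factors and 8 and 4 with the GC trend removed. At 48, 11 were higher and 5 lower, with a median of 0.79 beside 0.27. Itgb1, the beta 1 integrin chain that is part of VLA-4, was at 1.77 ± 0.21 in GM, and the adhesion molecules Pvrl3 (a nectin) and Alcam were at 1.63 and 1.97 at 48. Cd200, a ligand that restrains myeloid cells, was lower in Tw2_GM (−1.94 ± 0.15). Itgb1, Alcam and Cd200 kept these directions and calls under the size factor, quantile and GC alternatives in GM. Between the cultures 9 of the 16 fell and 4 rose in each lineage, where 40.5% of all genes fell in Pax7 and 48.9% in Tw2 cells. Chst2, a sulfotransferase of selectin ligands, fell in both (−3.79 in Pax7 and −4.48 in Tw2 cells), as did Podxl, a sialomucin (−3.19 and −3.56).

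Chemokines and their receptors were represented by 4 of 64 listed genes: Cxcl12, Cx3cl1, Cxcr4 and Ackr3. All 4 fell from GM to 48 in both lineages, where 40.5% of all genes fell in Pax7 and 48.9% in Tw2 cells. Ackr3, the scavenger receptor of Cxcl12, went from 109 and 127 CPM for Tw2_GM to 9.10 and 9.47 CPM for Tw2_48 (−3.53 ± 0.15) and fell by 4.05 in Pax7 cells. Cxcr4, its signalling receptor, fell in both (−1.63 in Tw2 and −1.66 in Pax7 cells). Cx3cl1, the membrane-bound chemokine fractalkine, was lower in Tw2_GM than in Pax7_GM (−1.20 ± 0.15, adjusted p = 0.000216). Its change differed between lineages in the direction opposite to that of Cxcl12 (1.29 ± 0.21, adjusted p = 0.00523). The ligand Cxcl12 was thus the only 1 of the 4 whose 48 level was called as different between lineages, and Cx3cl1, Cxcr4 and Ackr3 were at 0.09, −0.43 and 0.10 there. With size factors all 4 were called lower in Tw2 at 48 (−0.54 for Cx3cl1, −1.03 for Cxcr4 and −0.49 for Ackr3), and with the GC trend removed Cx3cl1 (0.66) and Ackr3 (0.36) were called higher.

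Of colony-stimulating factors, cytokines and their receptors, 18 of 64 were analysed here, and 11 fell in Pax7 and 12 in Tw2 cells, with 7 and 5 rising. Among all genes 40.5% fell in Pax7 and 48.9% in Tw2 cells. Il34, the other ligand of the Csf1 receptor, went from 22.8 and 24.7 CPM for Tw2_GM to 3.93 and 4.04 CPM for Tw2_48 (−2.31 ± 0.20). In Pax7 cells Il34 went from 33.5 and 21.99 CPM to 5.17 and 4.32 CPM. Il34 thus fell in both lineages (−2.30 in Pax7 cells), as Csf1 did. Tnfrsf19, of the TNF receptor family, rose by 4.63 in Tw2 and 2.82 in Pax7 cells, and Tnfrsf21, of the same family, fell in both (−2.42 and −2.43). In GM 4 were higher in Tw2 and 7 lower (median −0.23), against 11 higher and 3 lower with the GC trend removed, 1 and 13 with size factors and 1 and 9 with quantile normalization. At 48, Il1r1, the interleukin-1 receptor, was lower in Tw2 (−1.68 ± 0.13, adjusted p = 0.000115). Lifr, the receptor of leukemia inhibitory factor, was higher in Tw2_GM (1.80 ± 0.16, adjusted p = 7.64e-05).

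Around H2-K1, 9 of 46 genes of class I and antigen presentation were analysed here, and none was another classical class I heavy chain. Tap2, a subunit of the transporter that brings peptides to class I molecules, lies 203.2 kb from H2-K1. It was at 4.76 and 3.63 CPM for Tw2_GM and 38.2 and 29.7 CPM for Pax7_GM (−2.75 ± 0.17, adjusted p = 1.18e-05). Unlike H2-K1 it did not rise in Tw2 cells, at 5.10 and 5.11 CPM for Tw2_48 and 30.4 and 28.2 CPM for Pax7_48, where the lineages differed by −2.31 ± 0.17 (adjusted p = 0.000102). The chaperone Canx and the aminopeptidase Lnpep were higher in Tw2_GM (1.597 and 2.49). In all, 3 of the 9 were higher and 6 lower in GM (median −0.53), against 5 higher and 3 lower with the GC trend removed and 2 and 6 with size factors. Tap2 was among the 3 that stayed lower, at −1.87. Between cultures 3 rose and 2 fell in Pax7 cells, and 4 rose and 1 fell in Tw2 cells. H2-Ke6, an enzyme gene of the same region, rose in both (1.29 in Pax7 and 1.41 in Tw2 cells). Fcgrt, the neonatal Fc receptor, rose in both too (0.69 and 0.97).

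Of the interferon-stimulated genes, 12 of 45 listed were analysed here. From GM to 48, 3 rose and 7 fell in Pax7 cells (median −0.88), and 5 rose and 7 fell in Tw2 cells (median −1.004). The share of all genes that fell was 40.5% in Pax7 and 48.9% in Tw2 cells. Ifitm3, an antiviral membrane protein, fell in both (−2.64 in Pax7 and −2.01 in Tw2 cells), while Stat2, of the interferon signalling complex, rose by 1.88 and 1.77. In GM 2 were higher and 4 lower in Tw2, against 5 higher and 1 lower with the GC trend removed and 11 lower with size factors. Of the NF-kB and inflammatory transcription factor list, 16 of 40 were analysed here, and 7 rose in each lineage while 5 fell in Pax7 and 7 in Tw2 cells. Nfkbia, the NF-kB inhibitor, fell in both (−1.18 in Pax7 and −1.53 in Tw2 cells), and Stat3 rose by 1.38 in Pax7 and 2.34 in Tw2 cells. In GM 6 were higher and 7 lower (median −0.29), against 8 higher and 2 lower with the GC trend removed, 4 and 12 with size factors and 4 and 8 with quantile normalization. Hif1a, the hypoxia factor, was higher in Tw2 in both cultures (2.79 and 2.35), and was 1.55 and 1.57 with the GC trend removed. These 7 lists and their members were chosen with earlier results of these data known, and their counts are descriptions.

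**Figure D4:**
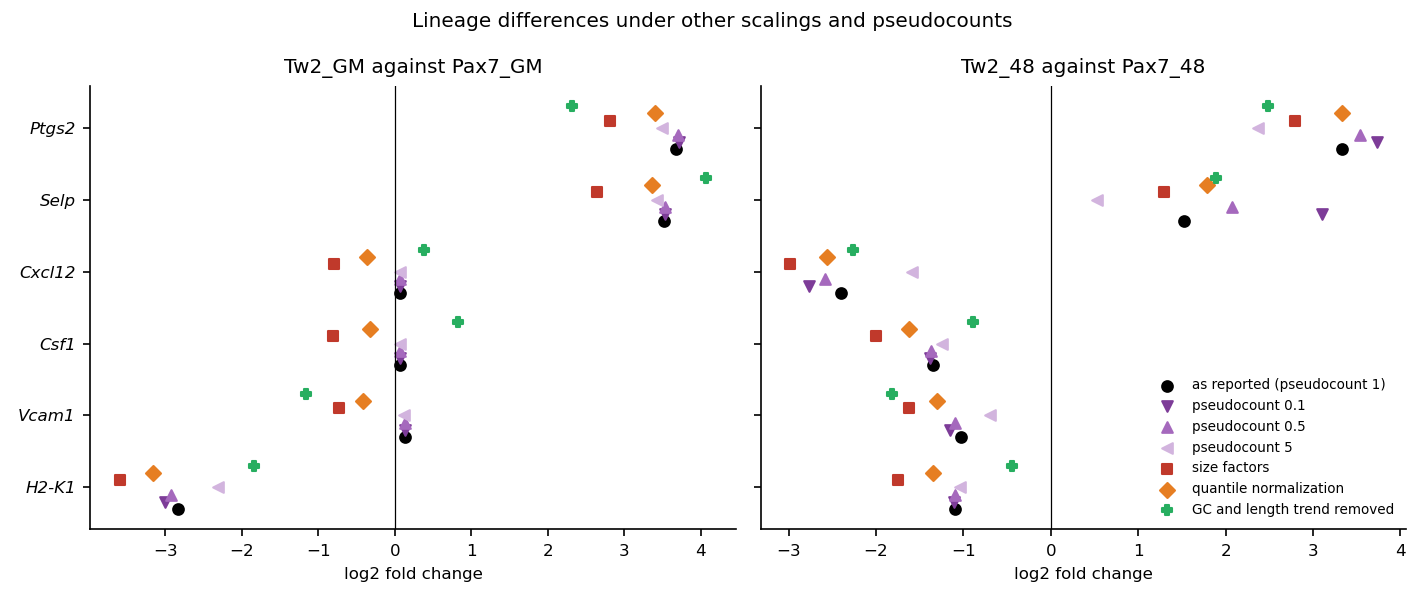
Tw2 minus Pax7 log2 fold change of each gene in GM (left) and at 48 (right) as reported and under the other pseudocounts, scalings and the removal of a GC and length trend. In GM, Ptgs2 and Selp stay right of 0 and H2-K1 left of 0 in every setting shown, whereas Cxcl12, Csf1 and Vcam1 change side.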

How the data were processed

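The authors deposited 1 table with the mean CPM of each group, 3 columns of log2 fold change against Tw2_GM (log2 of mean + 1, recomputed to within 1.4e-11) and a status that is 1 for every gene. GRCm38, DESeq2 1.6.3 and TopHat2 2.0.0 are listed, with no role, in the submitters' processing notes. The counter and annotation are not given in the sources used here.

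Each mean was taken apart into whole reads of its 2 libraries by finding the only pair of read counts that gives it to within 1.1 times its rounding error. This was possible for 5452 genes. On simulated means, 5451 of 5457 genes had 1 solution, and all 5451 were right. The 5 others, not fitted, were H19, Myh3, Mylpf, Acta1 and Actc1. Every solved gene had at least 10 CPM in at least 4 libraries.

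limma 3.58.1 (R 4.3.3) was fitted to log2(CPM + 1) of all 8 libraries with 1 mean per group, eBayes without trend (4 residual and 4.02 prior degrees of freedom), two-sided, and Benjamini-Hochberg adjustment. The spread is pooled over the 4 groups, although the Pax7_GM libraries were less alike than those of the other groups. The fit was also run on simulated data, but that outcome is not given here and lends the results no support. Alternatives were other pseudocounts (0.1 was added after the data were seen), scalings, weights, filters, a GC and length trend and leaving out each library.

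Transcripts, coordinates and GC content came from GENCODE M21, promoters from RefSeq. Vcam1 had no promoter entry. Protein sequences were not used here, and near copies were sought by shared transcript stretches of 50 bases. The members and lists were chosen with earlier results of these data known. Named genes are the members, the 3 genes most like each member, and up to 4 called genes per list and comparison by size of change. For lists with up to 6 genes analysed, all were named. Il34 and Ptgs1 in GM were also set beside a member.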

Additional observations from a re-analysis of the deposited data

Results flagged for a closer look

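For 5 of the 6 genes the change from GM to 48 differed between the lineages by limma's test of that difference (adjusted p under 0.05 over 5452 genes). Among all genes 18.7% were called by this test, 9.72% higher and 9.01% lower. The members were chosen with earlier results of these data known. H2-K1 rose more in Tw2 than in Pax7 cells, by 1.74 ± 0.18 on the log2(CPM + 1) scale (adjusted p = 0.000699), from 6.00 and 6.55 CPM in Tw2_GM. Cxcl12 fell further in Tw2 cells by 2.47 ± 0.28 (−2.47, adjusted p = 0.001), and Csf1 by 1.42 ± 0.19 (−1.42, adjusted p = 0.00233), from GM levels at which the lineages overlapped. Vcam1 also fell further in Tw2 cells (−1.16 ± 0.25, adjusted p = 0.0175), a call that leaving out a single library could end. For Selp the difference was −1.99 ± 0.31 (adjusted p = 0.00419), but its size and its call rest on the pseudocount, since Pax7_48 held 1 and 3 reads. With a pseudocount of 0.1 it was not called. The ratio of Tw2 to Pax7 in mean CPM was 11.8 in GM and 10.7 at 48 for Selp. The median of this difference over all genes was −0.22.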

How the results depend on the processing

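The 5 fitted values of each of the 6 genes make 30 results, recomputed under 18 alternatives (17 for the difference of changes, which needs all groups). Of 534 recomputed values, 514 kept their direction and their side of the threshold, 12 changed direction, 5 lost their call and 3 gained one, and 24 of the 30 results did not change under any alternative run. Several alternatives could not move a gene's fold change: eBayes with trend, weights by group, the filter on mean CPM and the fit of only the 4 libraries compared. Nor could leaving out a library of a group outside the comparison. For these the direction was fixed in advance, so the counts overstate how firmly the results held. In Tw2_GM against Pax7_GM, size factors gave −0.80 for Cxcl12, −0.81 for Csf1 and −0.74 for Vcam1, all called. Quantile normalization gave −0.36, −0.32 and −0.42, of which only Vcam1 was called (adjusted p = 0.04998). With the GC trend removed, Csf1 was at 0.83 and Vcam1 at −1.16, both called. On leaving out 1 library, Cxcl12 ranged from −0.022 (without the deeper Tw2_GM library) to 0.17 and Vcam1 from −0.013 (same) to 0.27, with no call. The difference of changes of Ptgs2 was −1.12 (called) with a pseudocount of 5, 0.013 with 0.1, 0.17 with the GC trend removed, and −0.58 to −0.11 on leaving out 1 library. That of Selp was −0.44 (not called) with a pseudocount of 0.1, and that of Vcam1 ranged from −1.33 to −0.98 on leaving out 1 library. The causes of these changes were not tested.

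Size factors and quantile normalization over the listed genes moved the median of all genes by −0.84 and −0.48 in GM and by −0.63 and −0.29 at 48, and by 0.14 to 0.45 in the culture comparisons. Removing the GC trend moved it by 0.17 in GM, 0.02 at 48 and 0.18 in the Tw2 cultures. Calls over all genes in GM went from 2655 higher and 1417 lower to 1393 and 2940 with size factors, 1973 and 2208 after quantile normalization and 3345 and 815 with the GC trend removed. At 48 they went from 2363 and 1205 to 945 and 2631, 1606 and 1715, and 2478 and 740, and to as few as 1462 higher and 671 lower on leaving out 1 library. Calls of the difference of changes went from 530 and 491 to 656 and 223, 690 and 459, and 604 and 1153 under those settings, and from 310 to 962 higher and 126 to 2191 lower on leaving out 1 library. No paired analysis was possible because the deposited means carry no replicate numbers. Depth limits mainly Selp in Pax7_48, which rests on 4 reads.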
